A study of Mus musculus with 4 samples.

Results

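The genes described here were 10 genes of ferroptosis and of cellular iron handling, Slc7a11, Gpx4, Acsl4, Sat1, Tfrc, Fth1, Ftl1, Slc40a1, Aifm2 and Alox12, out of 56691 genes in the deposited table. They were chosen by name for what their products do (cystine import, defense against lipid peroxides, lipid oxidation, polyamine breakdown, and iron uptake, storage and export). No rule on their values was used, but earlier results of these data were known at the time. Each symbol matched 1 row of the table. RNA-seq measured 4 sarcomas, malignant tumors of connective tissue, from W/+ mice, which carry 1 mutant and 1 wild-type allele of the gene for the tumor suppressor p53. The labels name the mutation p53R282W/+, while the methods of the study name the mouse change R279W. The ATO group was 2 sarcomas from mice that drank arsenic trioxide (ATO, 35 mg in 1 L of water) from day 90 after birth until death, and the Ctl group was 2 sarcomas from W/+ mice without ATO, whose treatment the labels give as PBS. All 4 sarcomas came from mutation carriers, so no comparison with wild-type p53 was possible. The tissue from which each sarcoma arose, its histological type, and the age at collection are not given in the sources used here. The labels also give a culture protocol with dexamethasone, isobutylmethylxanthine and insulin for all 4 samples, although they call the samples tumor tissue. The deposited design text describes samples taken before and after ATO, but the methods describe treated mice and other, untreated mice, and the comparison was made between groups without pairing. Nothing in the labels says how many animals stand behind each library, so p-values measure the spread between these 4 samples.

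Ferroptosis is a form of cell death that follows the iron-dependent oxidation of polyunsaturated membrane lipids. Cells guard against it by importing cystine for glutathione, by reducing lipid peroxides, and by trapping lipid radicals, and they keep free iron low by balancing the uptake, storage and export of iron. p53 is known to act on this system, since it lowers the transcription of Slc7a11 and raises that of Sat1 in several cell types. Iron itself sets much of the balance after transcription, because iron regulatory proteins bind a short RNA stem loop, the iron-responsive element. Bound near the start of a transcript the proteins block its translation, and bound in the 3′ UTR of Tfrc they protect the transcript from decay.

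Matches to such elements are shown here because iron can act on transcripts with an element after transcription. The search covered transcripts of 21864 protein-coding genes in the basic set of the GENCODE M21 annotation of GRCm38, on the transcript strand alone. It looked for the letters CNNNNNCAGTGN with 5 bases after the loop that pair with the 5 bases before it, G with T included. An element with other loop letters or an unpaired base in this stem is missed, so no match does not mean no element. A match lay in a 5′ UTR in 28 genes (0.128%) and in a 3′ UTR in 127 genes (0.581%). Of the 10 genes, 4 held a match in a UTR, and they were the genes of iron storage, export and uptake. Fth1 held it in exonic 5′ UTR at chr19:9982731-9982760 on the plus strand, Ftl1 at chr7:45459779-45459808 on the minus strand, and Slc40a1 at chr1:45925465-45925494 on the minus strand. The 3′ UTR of Tfrc, on the plus strand of chromosome 16, held 4 copies, at chr16:32631218-32631247, chr16:32631597-32631626, chr16:32631662-32631691 and chr16:32631709-32631738. The 30 bases around each match read as follows, 5′ to 3′, with the bulged C and the loop in capitals.
Fth1: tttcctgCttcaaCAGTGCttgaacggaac
Ftl1: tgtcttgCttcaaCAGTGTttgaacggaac
Slc40a1: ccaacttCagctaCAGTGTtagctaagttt
Tfrc copy 1: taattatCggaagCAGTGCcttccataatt
Tfrc copy 2: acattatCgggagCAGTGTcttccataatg
Tfrc copy 3: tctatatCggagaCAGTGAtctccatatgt
Tfrc copy 4: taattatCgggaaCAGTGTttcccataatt
Both ferritin genes shared the same stem letters between the capitals, and the Slc40a1 stem differed from theirs. A match describes the letters of the reference and not whether a protein was bound in these sarcomas. None of the further pathway genes listed here held a match in a UTR. Of the marker lists, only the erythroid genes were looked up. Among them Alas2, which starts heme synthesis in red cell precursors, held a match in its 5′ UTR.

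Library depth was even, with total counts from 15259695 to 18134000, so that a count of 0 allows up to 3 counts, or 0.165 to 0.197 CPM (counts scaled to the library total). Limits and intervals of this kind cover counting error only. The sarcomas differed in what else they held. The share of counts from mitochondrial genes was 14.7% in ATO 2 and 1.98% to 2.59% in the other 3 sarcomas. The mesenchymal markers expected of a sarcoma were present in all 4, with summed FPKM (counts scaled to gene length and library total) from 1293 in ATO 2 to 5276 in Ctl 1, and none of the 7 at 0. Of these, Col1a1, a collagen chain, was the most abundant at 273.32 to 2413.42 FPKM and Pdgfra, a growth factor receptor, the lowest at 5.84 to 96.17 FPKM. All 8 skeletal muscle genes and all 5 adipocyte genes were higher in both ATO sarcomas than in both Ctl sarcomas. Their FPKM summed to 7.09 (Ctl 1), 120 (Ctl 2), 13954 (ATO 1) and 992 (ATO 2) for muscle, and to 12.8, 66.6, 355 and 1828 in the same order for fat. Acta1, skeletal actin, was the most abundant muscle gene with up to 3898 FPKM, Ttn, titin, was the lowest with up to 42.23 FPKM, and both peaked in ATO 1. In bulk tissue, fewer cells of a type and less RNA per cell cannot be told apart. Cdkn1a, a p53 target that bears on the treatment label, had 5.61 and 17.93 FPKM in Ctl 1 and Ctl 2 and 75.8 and 49.38 FPKM in ATO 1 and ATO 2. Both ATO values lay above both Ctl values, as they did by FPKM for 12.8% of all genes tested. Cdkn1a did not pass the edgeR test described below (adjusted p = 0.570).

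No one of the 10 genes passed the edgeR quasi-likelihood test at an adjusted p of 0.05, with adjusted p from 0.583 (Aifm2) to 0.959 (Sat1) over 17188 genes tested. All 10 genes passed the filter on low counts. The test called 0 genes in all (0.0%), while 1463 genes (8.51%) had an unadjusted p under 0.05 and DESeq2 called 753 genes (4.12%). Of the 10 genes, 1 had an unadjusted p under 0.05 (Aifm2) and DESeq2 called 0. The fitted level was higher in ATO for 7 of the 10 genes, beside 49.2% of all genes tested. The median log2 fold change (ATO over Ctl) was 0.83 over the 10 genes and -0.02 over all genes tested. When counts were scaled by the total alone, as the deposited FPKM are, the median was 0.44 over the 10 genes and -0.28 over all genes, and 7 genes were still higher.

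The spread between sarcomas of the same group was wide for most of these genes. The 2 ATO sarcomas differed by more than 2-fold, on CPM scaled with TMM factors, in 8 of the 10 genes, beside 30.4% of all genes tested. The 2 Ctl sarcomas differed by more than 2-fold in 5 of the 10, beside 28.6% of all genes. Only Acsl4 and Sat1 stayed within 2-fold between the ATO sarcomas. By the same measure, the ATO pair lay wholly above the Ctl pair for 3 genes (Gpx4, Fth1 and Aifm2), beside 19.7% of all genes, and both lay below for none, beside 20.2%. By the deposited FPKM, which carry no TMM factor, both ATO sarcomas lay above for 2 genes (Gpx4 and Aifm2, beside 12.8%) and below for 1 gene (Acsl4, beside 29.6%). An exact permutation test of 2 against 2 sarcomas cannot give a p below 0.333.

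**Figure D1:**
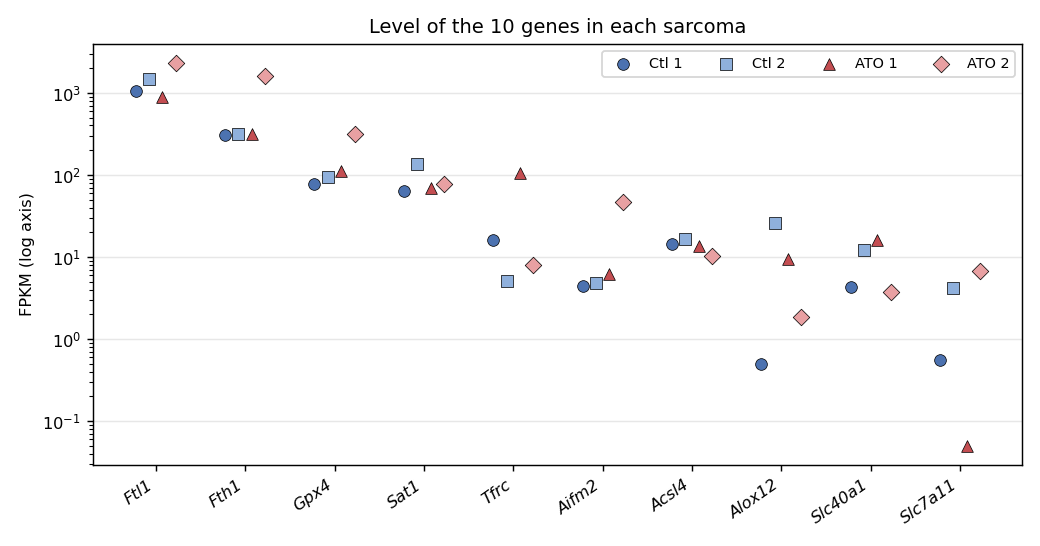
Level of each of the 10 genes in the 4 sarcomas, as deposited FPKM on a log axis, with genes ordered by mean level. Each point is 1 sarcoma, and the plot shows Ftl1 highest at 897.46 to 2302.72 FPKM, ATO 2 alone at the top for Fth1, Gpx4 and Aifm2, ATO 1 alone at the top for Tfrc, and Slc7a11 lowest at 0.05 FPKM in ATO 1.

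The plot of levels by sarcoma gives the order of the genes per length. That length is the deposited exonic size of each gene, from 1340 bases (Ftl1) to 13922 bases (Slc7a11), with 3469 for Fth1. The length of the transcripts present was not measured, so the order between genes depends on this size. In counts, Fth1 (85320) was above Ftl1 (47086) in ATO 2 and below it in Ctl 1, Ctl 2 and ATO 1. Both ferritin chains stood at the top, and the mean FPKM of Ftl1 (1428) was above that of 99.9% of genes tested and that of Fth1 (637) above that of 99.8%. Gpx4 (149 FPKM) and Sat1 (86.5 FPKM) followed. Tfrc (33.9), Aifm2 (15.5) and Acsl4 (13.6) were next in mean FPKM, and Alox12 (9.47), Slc40a1 (9.03) and Slc7a11 (2.89) were lowest. Neighbors in this order mostly overlapped. The 4 values of Alox12 (0.5 to 26.14 FPKM), of Slc40a1 (3.74 to 15.85 FPKM) and of Tfrc (5.14 to 106.28 FPKM) each spanned the means of at least 1 neighbor, whereas the lowest Ftl1 value was above 3 of the 4 Fth1 values.

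Slc7a11 (ENSMUSG00000027737, chr3:49892526-50443614, minus strand) is the light chain of the cystine and glutamate exchanger, which supplies cystine for glutathione. Ctl 1 had 0.56 FPKM and Ctl 2 had 4.17, while ATO 1 had 0.05 and ATO 2 had 6.76. The ATO sarcomas were thus the lowest and the highest of the 4, and both Ctl sarcomas lay between them. The ATO 1 value rested on 12 counts (95% exact Poisson interval 6.20 to 20.96), while ATO 2 had 1437. In CPM, ATO 2 was 175-fold above ATO 1, a gap wider than that of 99.7% of genes tested, and Ctl 2 was 7.35-fold above Ctl 1. The fitted log2 fold change was 0.95 (SE 2.05, adjusted p = 0.919 by edgeR), with a 95% interval from -4.43 to 6.34, and it became -5.47 without ATO 2 and 3.01 without Ctl 2. Slc3a2, the heavy chain that carries Slc7a11 and other transporters to the membrane, varied far less, at 35.87 and 37.72 FPKM in Ctl and 35.86 and 42.62 in ATO. The ratio of Slc7a11 to Slc3a2 was 0.0156 for Ctl 1, 0.111 for Ctl 2, 0.00139 for ATO 1 and 0.159 for ATO 2.

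Gpx4 and Aifm2 are the lipid peroxide and lipid radical defenses among the 10. Gpx4 (ENSMUSG00000075706, chr10:80047166-80056439, plus strand), the selenoenzyme that reduces phospholipid hydroperoxides with glutathione, had 76.75 and 93.79 FPKM in Ctl 1 and Ctl 2 and 111.99 and 315.12 in ATO 1 and ATO 2. The groups did not overlap, and ATO 1 was closer to the Ctl sarcomas than to ATO 2. In CPM the means were 134 ± 17.6 in Ctl and 428 ± 334 in ATO (SD, n = 2 each), so the ATO spread was larger than the difference. The Gpx4 change was fitted at 1.68 on the log2 scale (SE 0.73, 95% interval -0.25 to 3.60, adjusted p = 0.602 by edgeR), 0.53 without ATO 2 and 2.29 without ATO 1. A processed copy, Gpx4-ps2, shares 73.1% of its 75-base windows with Gpx4 transcripts and was counted at 11.7% to 15.7% of the Gpx4 count, so the split of reads between them is uncertain.

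Aifm2 (ENSMUSG00000020085, chr10:61715263-61739260, plus strand) encodes FSP1, which reduces coenzyme Q so that it traps lipid radicals without glutathione. It had 4.36 and 4.86 FPKM in Ctl 1 and Ctl 2, and 6.26 and 46.43 FPKM in ATO 1 and ATO 2. The Ctl sarcomas were nearly equal, ATO 1 was slightly above them, and ATO 2 was 9.10-fold above ATO 1 in CPM. The log2 fold change was 2.90 (SE 1.09, 95% interval 0.040 to 5.77, unadjusted p = 0.0479, adjusted p = 0.583 by edgeR), with an adjusted p of 0.0954 by DESeq2. Without ATO 2 it was 0.58 and without ATO 1 it was 3.74. Aifm2 overlaps H2afy2 on the opposite strand, and no source used here says whether the counting used strand, so reads of the overlap cannot be told apart. H2afy2 had 367, 181, 108 and 152 counts in Ctl 1, Ctl 2, ATO 1 and ATO 2, which was lowest in ATO 1 and did not follow Aifm2.

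Acsl4, Alox12 and Sat1 stand on the side of lipid oxidation. Acsl4 (ENSMUSG00000031278, chrX:142317993-142390535, minus strand) activates long polyunsaturated fatty acids for membrane lipids. It was the most even of the 10 genes, at 14.2 and 16.57 FPKM in Ctl and 13.56 and 10.12 in ATO. In CPM the highest sarcoma was only 1.21-fold above the lowest and the groups overlapped, whereas by FPKM both ATO values lay below both Ctl values. The log2 fold change was -0.12 (SE 0.35, adjusted p = 0.946 by edgeR), with a 95% interval from -1.03 to 0.80, and stayed between -0.22 and -0.017 when any 1 sarcoma was left out. The ratio of Gpx4 to Acsl4 FPKM was 5.40 for Ctl 1, 5.66 for Ctl 2, 8.26 for ATO 1 and 31.1 for ATO 2.

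Sat1 (ENSMUSG00000025283, chrX:155213132-155216449, minus strand) acetylates spermidine and spermine, which starts the breakdown of polyamines. It had 63.86 and 134.94 FPKM in Ctl 1 and Ctl 2 and 69.9 and 77.37 FPKM in ATO 1 and ATO 2. Both ATO sarcomas fell between the Ctl sarcomas. Its fitted log2 fold change of -0.14 (SE 0.56, adjusted p = 0.959 by edgeR) became 0.48 without Ctl 2 and 0.052 without ATO 1.

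Alox12 (ENSMUSG00000000320, chr11:70241457-70255353, minus strand) is the 12-lipoxygenase known best from platelets, and it oxidizes arachidonic acid. Ctl 1 had 0.5 FPKM and Ctl 2 had 26.14, while ATO 1 had 9.38 and ATO 2 had 1.84. Here the Ctl sarcomas were the extremes, with 36 counts (95% exact Poisson interval 25.2 to 49.8) in Ctl 1 and 1919 in Ctl 2, a 51.1-fold gap in CPM that was wider than that of 99.7% of genes tested. The fitted log2 change was -1.05 (SE 1.69, adjusted p = 0.887 by edgeR), 3.64 without Ctl 2 and -2.43 without ATO 1. All 6 genes of the platelet and megakaryocyte list were highest in Ctl 2, and their FPKM summed to 123 for Ctl 1, 529 for Ctl 2, 316 for ATO 1 and 143 for ATO 2. The median of the 6 genes was 0.905, 40.9, 15.3 and 0.84 FPKM in the same order, and none was at 0. Gp1bb, a platelet adhesion receptor chain and the lowest of the list, had 0.03 FPKM for Ctl 1, 0.64 for Ctl 2, 0.58 for ATO 1 and 0.03 for ATO 2, so it was higher in the sarcomas with more Alox12, Ctl 2 and ATO 1. Pf4, a platelet chemokine and the most abundant of the list, was also highest in Ctl 2 but was lower in ATO 1 than in ATO 2, with 116.02 FPKM for Ctl 1, 183.06 for Ctl 2, 117.48 for ATO 1 and 134.52 for ATO 2. The part of platelets in the Alox12 level was not tested. Keratinocyte genes, another place where lipoxygenases are active, summed to 0.57 to 3.89 FPKM, with Krt10 the most abundant (0.44 to 1.81 FPKM) and Krt1 at 0 in all 4 sarcomas.

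**Figure D2:**
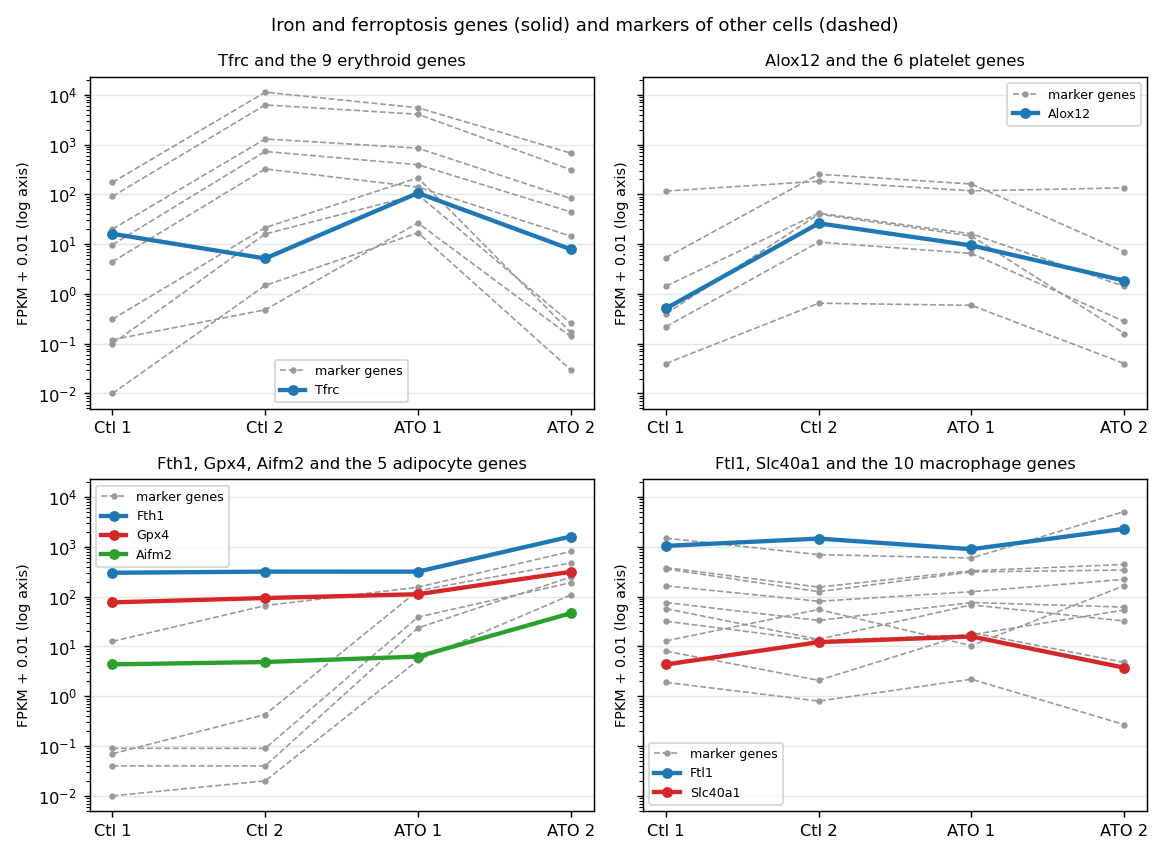
FPKM of iron and ferroptosis genes (solid) and of marker genes of other cell types (dashed grey) in the 4 sarcomas, on a log axis with a small constant added; lines only join the values of 1 gene. Alox12 and all 6 platelet genes peaked in Ctl 2, Tfrc peaked in ATO 1 as did 4 of the 9 erythroid genes, Fth1, Gpx4 and Aifm2 peaked in ATO 2 as did all 5 adipocyte genes, and the macrophage genes had no single peak.

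Tfrc (ENSMUSG00000022797, chr16:32608920-32632794, plus strand) is the transferrin receptor, which brings iron into cells and is most abundant on dividing cells and on red cell precursors. Ctl 1 had 16.1 FPKM and Ctl 2 had 5.14, while ATO 1 had 106.28 and ATO 2 had 7.88. ATO 1 stood alone, while ATO 2 fell between the Ctl sarcomas. Tfrc was fitted at a log2 fold change of 2.57 (SE 1.30, 95% interval -0.83 to 5.97, adjusted p = 0.639 by edgeR) and rested on ATO 1, without which it was -0.033. Without Ctl 1 it was 3.63. The 4 matches printed above sit in the 3′ UTR of this transcript, but the counts do not show whether its stability differed.

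Markers of red cell precursors moved with Tfrc in part. Summed over the 9 erythroid genes, FPKM reached 299 for Ctl 1, 19866 for Ctl 2, 11269 for ATO 1 and 1128 for ATO 2, so the list as a whole was highest in Ctl 2, where Tfrc was lowest. Hbb-bs, the most abundant of them, encodes a beta globin and had 173, 11236, 5479 and 673 FPKM in Ctl 1, Ctl 2, ATO 1 and ATO 2. The other part of the list behaved differently, and 4 genes peaked in ATO 1. Of these, Epb42, a red cell membrane skeleton gene and the lowest of the list, had 0, 1.47, 16.94 and 0.02 FPKM in the same order. Klf1, the erythroid transcription factor, had 0.11, 0.47, 26.57 and 0.13 FPKM and was named after its values were seen. Of 8 proliferation genes, 6 were highest in Ctl 1 and 2 in ATO 1, with sums of 168 (Ctl 1), 106 (Ctl 2), 164 (ATO 1) and 33.1 FPKM (ATO 2). The most abundant of them, the replication clamp Pcna (22.09 to 46.53 FPKM), and the lowest, the replication helicase gene Mcm2 (1.87 to 9.80 FPKM), were both lowest in ATO 2. All 8 skeletal muscle genes were also highest in ATO 1, with a sum of 13954 FPKM, beside 992 for ATO 2. Their sum was lowest in Ctl 1 (7.09), while Tfrc was lowest in Ctl 2, where the muscle sum was 120. The part of red cell precursors, dividing cells or muscle in the Tfrc level was not tested.

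Fth1 and Ftl1 are the heavy and light chains of ferritin, the shell in which cells store iron, and only the heavy chain oxidizes iron for storage. Fth1 (ENSMUSG00000024661, chr19:9980598-9985098, plus strand) had 302.1 and 318.14 FPKM in Ctl 1 and Ctl 2 and 317.88 and 1611.76 FPKM in ATO 1 and ATO 2. Of the 4 sarcomas, 3 were almost equal and ATO 2 was far above them. In CPM the values were 963, 999, 1099 and 6837, so ATO 2 was 6.22-fold above ATO 1, and ATO 1 was above both Ctl sarcomas by a margin that the FPKM scale does not keep. Fth1 was fitted at a log2 fold change of 2.02 (SE 1.11, 95% interval -0.90 to 4.93, adjusted p = 0.660 by edgeR), and 0.17 without ATO 2. Fth1 pseudogene rows together held at most 7 counts and shared no 75-base window with Fth1 where a transcript sequence was at hand.

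Ftl1 (ENSMUSG00000050708, chr7:45457944-45459884, minus strand) had 1045.28 and 1466.24 FPKM in Ctl 1 and Ctl 2 and 897.46 and 2302.72 FPKM in ATO 1 and ATO 2. The ATO sarcomas again held both the lowest and the highest value. Its log2 fold change of 0.70 (SE 0.86, adjusted p = 0.850 by edgeR) became -0.35 without ATO 2 and 1.28 without ATO 1. Its copy Ftl1-ps1 shares 51.9% of its 75-base windows with Ftl1, but all Ftl1 copies together held at most 0.694% of the Ftl1 count. The ratio of heavy to light chain, per length, was 0.289 for Ctl 1, 0.217 for Ctl 2, 0.354 for ATO 1 and 0.700 for ATO 2. The size of this ratio depends on the exonic sizes used, while its order across the sarcomas does not. Both ATO sarcomas had a larger share of heavy chain, and with the pseudogene counts added the ratios were 0.288, 0.216, 0.352 and 0.696 for Ctl 1, Ctl 2, ATO 1 and ATO 2.

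ATO 2 held the highest level of Fth1, Ftl1, Gpx4, Aifm2 and Slc7a11, and other features of that sarcoma stood beside them. Its mitochondrial share of 14.7% has been given above. All 5 adipocyte genes were highest in ATO 2, with a median of 0.06 and 0.08 FPKM in Ctl 1 and Ctl 2 and 38.9 and 248 in ATO 1 and ATO 2. Fabp4, a fatty acid carrier and the most abundant of that list, had 12.63 FPKM for Ctl 1, 66.10 for Ctl 2, 154.80 for ATO 1 and 809.09 for ATO 2. Plin1, a coat protein of fat droplets and the lowest of the list, was at 0 in Ctl 1. Of the 10 macrophage genes, which mark a cell type rich in ferritin and in the iron exporter, 5 were highest in ATO 2, 3 in ATO 1 and 2 in Ctl 1. The macrophage sum was 2594 FPKM for Ctl 1, 1179 for Ctl 2, 1558 for ATO 1 and 6443 for ATO 2, of which Lyz2, a lysozyme, was 1497, 698, 594 and 5115 FPKM in Ctl 1, Ctl 2, ATO 1 and ATO 2. Vsig4, the lowest of the macrophage list, did not peak in ATO 2, and none of the 10 was at 0. The part of fat cells, macrophages or the mitochondrial share in these levels was not tested.

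Slc40a1 (ENSMUSG00000025993, chr1:45908068-45926523, minus strand) is ferroportin, the exporter through which iron leaves cells. It had 4.34 and 12.19 FPKM in Ctl 1 and Ctl 2 and 15.85 and 3.74 FPKM in ATO 1 and ATO 2. Each group had 1 high and 1 low sarcoma, and the ATO sarcomas were again the extremes. The log2 fold change of 0.44 (SE 0.81, adjusted p = 0.903 by edgeR) became -0.73 without ATO 1, -0.12 without Ctl 1 and 1.35 without Ctl 2. The 2 sarcomas high in Slc40a1 were the same as those high in erythroid genes and in the platelet genes other than Pf4. The macrophage genes did not move as one with it, since 3 of the 10 peaked in ATO 1, where Slc40a1 was highest, and 5 in ATO 2, where it was lowest. The part of these cell types in the Slc40a1 level was not tested.

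**Figure D3:**
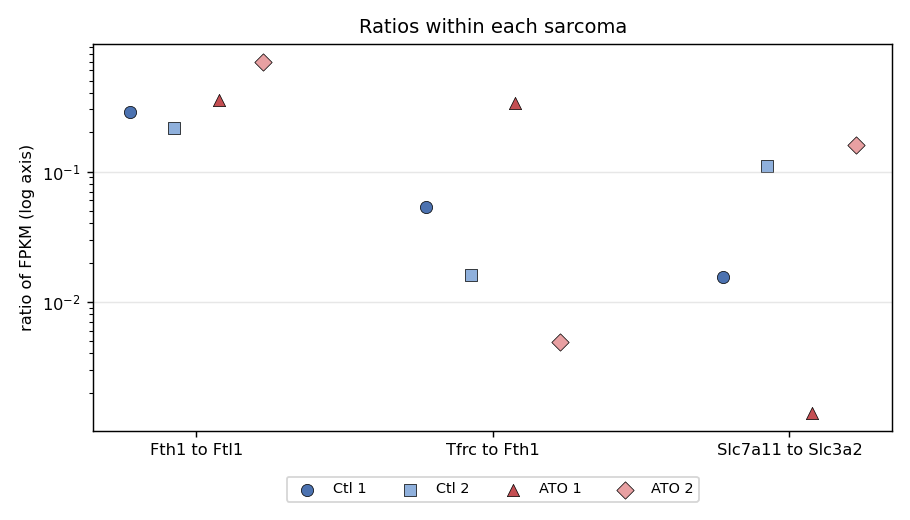
Ratios of FPKM within each sarcoma, on a log axis, for heavy to light ferritin chain, transferrin receptor to heavy ferritin chain, and light to heavy chain of the cystine exchanger. Each point is 1 sarcoma; the ratio of Fth1 to Ftl1 was highest in both ATO sarcomas (0.354 and 0.700), and the ATO sarcomas were the extremes of the other ratios.

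Within a sarcoma, the balance of iron uptake to storage transcripts was also compared. The ratio of Tfrc to Fth1 was 0.0533 for Ctl 1, 0.0162 for Ctl 2, 0.334 for ATO 1 and 0.00489 for ATO 2, so that ATO 1 had by far the most receptor per ferritin heavy chain and ATO 2 the least. As the plot of ratios shows, the Ctl sarcomas lay between the ATO sarcomas in that ratio. The ratio of Slc7a11 to Slc3a2 was ordered the other way, lowest in ATO 1 and highest in ATO 2. Of the 3 ratios plotted, only the ferritin ratio separated the groups. The ratio of Gpx4 to Acsl4 given above, which was not plotted, separated them too.

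**Figure D4:**
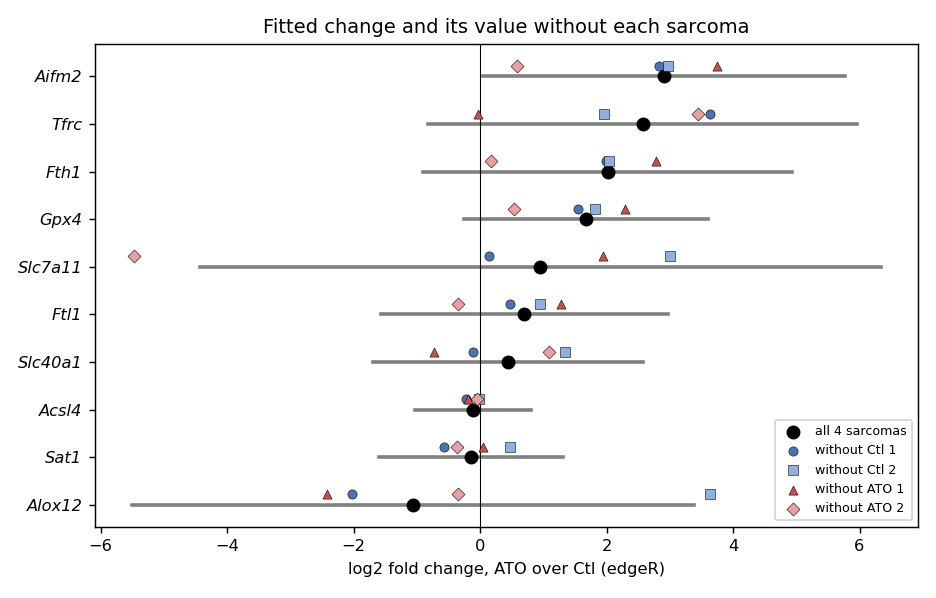
Fitted log2 fold change (ATO over Ctl, edgeR) of the 10 genes, with the 95% interval of the fit to all 4 sarcomas (grey bar) and the value when each sarcoma was left out (small symbols above the bar). Only the interval of Aifm2 (0.040 to 5.77) excluded 0, and leaving out 1 sarcoma moved the value across 0 for Slc7a11, Tfrc, Ftl1, Slc40a1, Sat1 and Alox12.

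The plot of fitted changes shows how much each value rested on 1 sarcoma. Gpx4, Fth1 and Aifm2 kept a positive sign and Acsl4 a negative one in every fit that left out 1 sarcoma. The other 6 genes changed sign in at least 1 of them. For Gpx4, Fth1 and Aifm2 the positive value without ATO 2 was 0.53, 0.17 and 0.58 in the same order.

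Further genes of the same pathways were read from 8 lists with 101 symbols, of which 100 were in the table and 94 passed the filter. Of these 94 genes, edgeR called 0 (0.0% of all genes) and, without the filter on low counts, 2 (Scd1 and Hjv, beside 1.75% of all genes). Of the 94, 10 had an unadjusted p under 0.05 (10.6%, beside 8.51% of all genes) and DESeq2 called 5 (Scd1, Tfr2, Hephl1, Hjv and Blvrb, beside 4.12% of all genes). The fitted level was higher in ATO for 64 and lower for 30 (68.1% higher, beside 49.2% of all genes), and the median log2 fold change was 0.33. By CPM the ATO pair lay wholly above the Ctl pair in 32 genes (34.0%, beside 19.7% of all genes) and below in 9 (beside 20.2% of all genes). By FPKM it lay above in 23 of the 94 genes and below in 12, beside 12.8% and 29.6% of all genes. By total counts alone, the median was 0.04, beside -0.28 over all genes.

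The cystine and glutathione list had 14 genes tested, 11 higher and 3 lower, with a median log2 fold change of 0.48. Slc1a5, the glutamine transporter, had 17.44 and 41.54 FPKM in Ctl and 62.04 and 104.27 in ATO, with a log2 fold change of 1.82 (SE 0.69, adjusted p = 0.585 by edgeR). Gpx1, the abundant glutathione peroxidase of the cytosol, was the most highly expressed of the list at 86.78 and 126.85 FPKM in Ctl and 140.14 and 123.52 in ATO. Its groups overlapped by FPKM, whereas by CPM the ATO pair (201 and 218) lay above the Ctl pair (115 and 166). Of the lipid radical defense list, 7 of 14 genes were higher and 7 lower (median 0.02, and -0.28 by total counts). Scd1, which makes monounsaturated fatty acids and is abundant in fat, had 23.90 and 5.49 FPKM in Ctl and 46.38 and 3428.15 in ATO. Its log2 fold change was 7.30 (SE 2.62, adjusted p = 0.576 by edgeR), with an adjusted p of 0.000183 by DESeq2 and 0.0229 by edgeR without the filter. The 3428.15 FPKM of ATO 2 stood beside the adipocyte genes given above, and their part was not tested.

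The lists of lipid oxidation and of polyamines were close to even. In the first, 6 of 14 genes tested were higher and 8 lower, with a median of -0.13. Pebp1, which binds 15-lipoxygenases, was highest of that list, at 136.83 and 69.43 FPKM in Ctl and 48.13 and 81.62 in ATO, with overlapping groups. Of the 10 polyamine genes, 6 were higher and 4 lower (median 0.10, and -0.13 by total counts). Srm, spermidine synthase, had 42.79 and 52.30 FPKM in Ctl and 17.90 and 10.98 in ATO, so the groups did not overlap. Srm was fitted at -1.47 on the log2 scale (SE 0.39, adjusted p = 0.570 by edgeR). Oaz1, the ornithine decarboxylase antizyme, was the most abundant polyamine gene at 75.07 and 88.82 FPKM in Ctl and 94.77 and 100.78 in ATO.

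Of 13 genes of iron uptake, 10 were higher and 3 lower, with a median of 0.34. Trf, transferrin, the plasma carrier whose receptor is Tfrc, had 35.04 and 31.37 FPKM in Ctl and 96.11 and 81.97 in ATO. Unlike Tfrc, its values were close within each group, and its log2 fold change was 1.69 (SE 0.42, unadjusted p = 0.0115, adjusted p = 0.570 by edgeR). Tfr2, the second transferrin receptor, had 0.58 and 0.51 FPKM in Ctl and 2.84 and 1.71 in ATO. Its log2 fold change was 2.30 (adjusted p = 0.570 by edgeR and 0.0346 by DESeq2). Hp, haptoglobin, which binds free hemoglobin, had 11.34 and 169.32 FPKM in Ctl and 245.30 and 638.06 in ATO. Of 10 genes of iron storage and mitochondrial iron tested, 8 were higher and 2 lower (median 0.59). Cisd1, an iron-sulfur protein of the outer mitochondrial membrane, had 13.79 and 14.58 FPKM in Ctl and 33.73 and 81.19 in ATO, with a log2 fold change of 2.36. Pcbp1, which delivers iron to ferritin, had 133.85 and 135.58 FPKM in Ctl and 94.71 and 92.39 in ATO.

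Of 10 genes of iron export and its regulation tested, 7 were higher and 3 lower (median 1.36). Cp, ceruloplasmin, a copper enzyme that oxidizes exported iron, had 23.95 and 8.82 FPKM in Ctl and 50.91 and 12.26 in ATO, with overlapping groups. Its relatives were low. Hephl1 had 0 and 0.06 FPKM in Ctl and 0.26 and 1.23 in ATO (adjusted p = 0.576 by edgeR and 0.0369 by DESeq2). Heph had 0.29 and 0.44 FPKM in Ctl and 4.33 and 0.50 in ATO. All 9 genes of the heme list had a higher fitted level in ATO (median 0.79, beside 49.2% of all genes higher). In 5 of them the ATO pair lay above the Ctl pair by CPM, beside 19.7% of all genes. The list leaves out Alas2, which starts heme synthesis in red cell precursors and was placed in the erythroid list. Named here after its values were seen, Alas2 had 4.43 and 322.98 FPKM in Ctl and 140.03 and 14.48 in ATO. Its log2 fold change was -0.92, so it went the other way. Blvrb, a biliverdin reductase, had 5.80 and 9.38 FPKM in Ctl and 31.72 and 18.82 in ATO. Its log2 fold change was 1.98 (adjusted p = 0.570 by edgeR and 0.0485 by DESeq2). Alad, the second enzyme of heme synthesis, had 6.30 and 9.37 FPKM in Ctl and 37.17 and 13.66 in ATO. Hmox1, which opens heme and frees its iron, was the most abundant of the list but overlapped between groups, at 117.2 and 279.58 FPKM in Ctl and 88.09 and 408.95 in ATO. Several heme genes are also used by red cell precursors, whose markers were uneven as described for Tfrc, and the part of those cells was not tested.

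**Figure D5:**
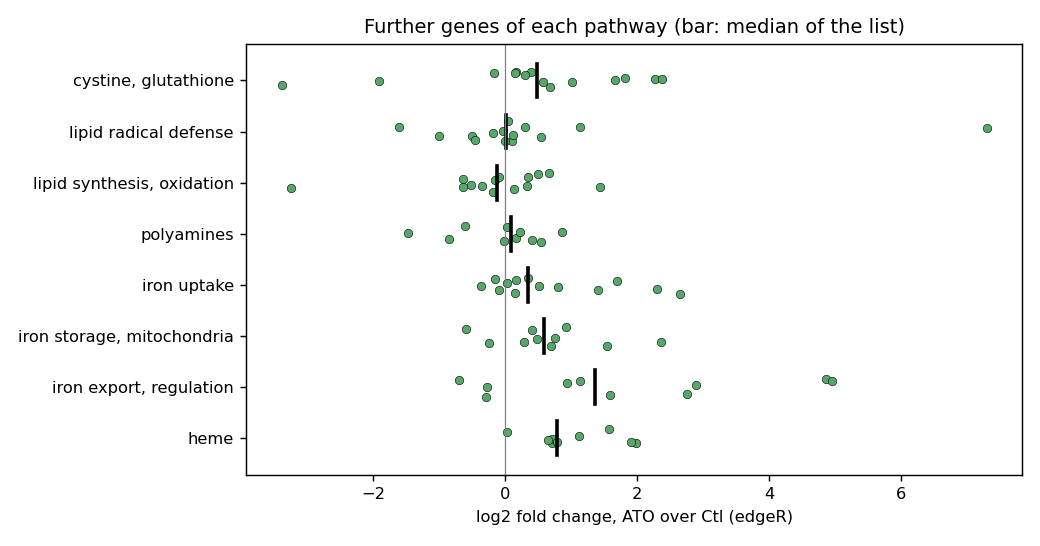
Fitted log2 fold change (ATO over Ctl, edgeR) of the 94 further genes tested, by list; each point is 1 gene, spread vertically for legibility, and the black bar is the median of the list. The medians run from -0.13 (lipid synthesis and oxidation) to 1.36 (iron export and its regulation), and Scd1 is the point at 7.30. All 9 genes of the heme list, which leaves out Alas2, lie right of 0.

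In the plot of the lists, the 3 iron lists, the heme list and the cystine and glutathione list had medians from 0.34 to 1.36. The 3 lipid and polyamine lists had medians from -0.13 to 0.10, and the all-gene median was -0.02. By total counts alone, the medians were lower in both sets of lists. They ran from 0.06 (iron uptake) to 1.10 (iron export) in the first set and from -0.37 to -0.13 in the second. The all-gene median by total counts was -0.28.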

How the data were processed

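Raw read counts per gene were deposited by the authors, who trimmed reads with cutadapt 1.9.1, checked them with FastQC 0.10.1, aligned them to GRCm38 with HISAT2 2.0.1 and counted them with HTSeq, per the methods and the submitters' processing notes. The strand setting and the treatment of reads with several alignments are not given in the sources used here. The labels name TRIzol and a SMARTER kit, the methods a spin column and a TruSeq kit. The authors also deposited FPKM, which equal the count divided by gene length and total count to within 0.005 for all 56691 genes. Only 2.83% of genes have the position that GENCODE M21 gives, so positions were taken from M21 by gene identifier. The symbol is blank for 2639 genes.

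The test across all genes was the quasi-likelihood F-test of edgeR 4.0.16 (R 4.3.3) after filterByExpr (TMM factors 1.09, 1.11, 1.01 and 0.822 for Ctl 1, Ctl 2, ATO 1 and ATO 2, Benjamini-Hochberg over 17188 genes, threshold 0.05), with 2 sarcomas per group and no covariate. The biological coefficient of variation was 62.5%. CPM were computed on TMM-scaled library sizes. For counts of gaps over 2-fold and shares of genes with a smaller gap, 0.5 CPM was first added to each value. The fold gaps printed in CPM carry no such constant. As alternatives, DESeq2 1.42.0 was run, and edgeR was refitted with median-of-ratios size factors, total counts alone, no filter, a replicate block and each sarcoma left out. Code was tested on simulated data. Ratios, motif search and plots used Python 3.11.15 (numpy 2.4.6, pandas 2.3.3, scipy 1.17.1, matplotlib 3.10.9).

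The 10 genes, the pathway lists and the marker lists were chosen with earlier results of these data known. Named beside the 10 genes were, of each pathway list, the gene with the highest mean FPKM, genes past the threshold, and at most 3 further genes with the lowest unadjusted p under 0.05, of each marker list the genes with the highest and lowest mean FPKM, and Cdkn1a. Slc3a2 was named for its ratio with Slc7a11, and genes named after their values were seen are marked as such.
Marker lists not discussed with a result gave summed FPKM of 96.0, 785, 64.2 and 135 (endothelial), 1.05, 7.64, 5.41 and 17.6 (epithelial) and at most 0.68 (hepatocyte) in Ctl 1, Ctl 2, ATO 1 and ATO 2. Their most and least abundant genes were Cdh5 (24.68 to 371.97 FPKM) and Vwf (3.69 to 10.87), Krt18 (0.24 to 5.79) and Cdh1 (0.14 to 1.70), and Alb (0 to 0.54) and Ttr (0 in all). Xist was detected and 4 Y-linked genes were at 0 in all 4 sarcomas. No pair of sarcomas shared its counts.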

Additional observations from a re-analysis of the deposited data

How the results depend on the processing

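The 0 of 10 genes past the threshold held under all 9 alternatives of the fit. The count over all genes was 0 with edgeR, 753 with DESeq2 and 541 without the filter, and 0 in every fit without 1 sarcoma (range 0 to 0). Of the 94 further pathway genes, DESeq2 called 5 and edgeR without the filter called 2, and leaving out a sarcoma gave 0. The number of the 10 genes higher in ATO was 7, and from 5 to 9 without 1 sarcoma, where the group left with 1 sarcoma is assumed to vary like the other. By FPKM, 1 gene lay below in both ATO sarcomas, in place of 0 by CPM. Of the 10 genes, 4 kept their direction in all 9 alternatives and 6 did not. The log2 fold changes that changed sign when 1 sarcoma was left out ran from -5.47 (without ATO 2) to 3.01 (without Ctl 2) for Slc7a11, from -0.58 (without Ctl 1) to 0.48 (without Ctl 2) for Sat1 with 0.052 without ATO 1, from -0.033 (without ATO 1) to 3.63 (without Ctl 1) for Tfrc, from -0.35 (without ATO 2) to 1.28 (without ATO 1) for Ftl1, from -0.73 (without ATO 1) to 1.35 (without Ctl 2) for Slc40a1 with -0.12 without Ctl 1, and from -2.43 (without ATO 1) to 3.64 (without Ctl 2) for Alox12. Of the further genes they ran from -0.97 (without ATO 2) to 0.23 (without Ctl 1) for Pebp1 with 0.063 without ATO 1, from -0.021 (without ATO 1) to 2.04 (without Ctl 1) for Cp, and from -1.03 (without ATO 2) to 1.46 (without ATO 1) for Hmox1. The cause was not tested. Of 17 other named genes, 14 kept their direction.

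Replicate numbers are shared between the groups in the labels only as numbers. Deviations of same-numbered sarcomas had a correlation of -0.02 across genes. The design text speaks of sarcomas before and after treatment and the methods of separate mice, and neither says that a number marks 1 animal. With the replicate block, the number of all genes and of the 10 genes called was 0, the number higher stayed at 7, and the log2 fold change was -1.01 for Slc7a11 and 0.43 for Alox12, both with the other sign. The 12 counts of Slc7a11 in ATO 1 and the 36 of Alox12 in Ctl 1 were the lowest counts of the 10 genes, and so the ones that depth limited most.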

Other observations

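Further genes of the pathway lists stood out in single sarcomas and were chosen after their values were seen. In ATO 1, Slc25a37, the mitochondrial iron importer of red cell precursors, had 100.34 FPKM, beside 10.87 and 35.12 in Ctl 1 and Ctl 2 and 18.39 in ATO 2. Erfe, the hormone by which red cell precursors lower hepcidin, had 11.15 FPKM in ATO 1 and 0.12 to 1.36 in the other 3. Hjv, hemojuvelin, a coreceptor that skeletal muscle also makes, had 0.03 and 2.30 FPKM in Ctl and 56.12 and 7.63 in ATO, an order shared with the summed FPKM of the skeletal muscle list given in the report. Chac1, which degrades glutathione and is induced by amino acid stress, had 28.67 FPKM in ATO 1, where Slc7a11 was lowest, and 1.52 to 4.66 in the other 3. In Ctl 2, Alox5ap, which presents arachidonic acid to 5-lipoxygenase, had 185.46 FPKM beside 35.48 to 64.84 elsewhere, and Alox15 had 5.40 FPKM beside 0 to 0.37. Apart from Hjv, for which both ATO values exceeded both Ctl values, these patterns each rest on 1 sarcoma.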
